A study of Mus musculus with 22 samples.

Results

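Retinoic acid, the active form of vitamin A, is made and sensed by a small set of genes, and 8 of them were followed here through mouse dendritic cells (DCs). The 8 members were Aldh1a1, Aldh1a2, Rdh10 and Rdh11, grouped here as synthesis genes, the retinaldehyde reductase Dhrs3, and the receptors Rara, Rarg and Rxra. They were chosen by name, as the rows with these symbols among the 34047 genes of the RNA-seq count table, and all 8 were found. RNA was read in 16 libraries, made from spleen and mesenteric lymph node (MLN). Spleen gave 3 libraries for cDC1s, for T-bet+ cDC2s and for T-bet- cDC2s alike, and MLN gave 3 for cDC1s but 2 for either kind of cDC2. Chromatin accessibility was read by ATAC-seq in 6 libraries, 2 of each subset, from spleen only. Every cell came from Tbx21 RFP-Cre mice kept free of pathogens, 6 to 10 weeks old and of both sexes, in which red fluorescent protein (RFP) marks cells that express T-bet, and each RNA library came from 2 pooled mice, so the p-values below measure the spread between these libraries. DCs were sorted as CD11c+ MHCII+ cells without the lineage markers, CD64 or Ly6C. cDC1s were the XCR1+ CD11b- cells, and cDC2s were the CD11b+ XCR1- cells, divided by RFP. The MLN holds resident DCs and DCs that migrated from the gut, and these were not separated by the sort.

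The labels were checked against the genes behind the gates. Xcr1 lay between 445 and 1219 CPM (reads scaled to the size of the library) in every cDC1 library and between 4.44 and 34.01 CPM in the cDC2 libraries, and Sirpa and Itgam, both cDC2 genes, were low in every cDC1 library (at most 8.46 and 1.55 CPM). Tbx21, the gene of T-bet, was at 17.2 to 24.9 CPM in spleen T-bet+ cDC2s and at 2.93 and 7.19 CPM in the MLN T-bet+ cDC2s, above the 0.145 to 2.38 CPM of the other groups. Libraries held 20993220 to 29006549 reads on genes. For each library, a gene's log2 CPM less its mean over the 16 RNA libraries was set against GC content. GC content was the highest of any 100-base window of the gene's longest transcript. This relative level rose with GC content in 6 spleen libraries (Spearman's rho across genes 0.207 to 0.34). They were cDC1 replicates 1 and 2, T-bet- cDC2 replicate 3 and all T-bet+ cDC2 replicates. In the other 10 libraries, all those of the MLN among them, it fell with GC content or hardly followed it (-0.404 to 0.0433). This library class, higher for those 6 and lower for the other 10, is therefore given beside the results that move with it. In T-bet+ cDC2s every spleen library is of the higher class and every MLN library of the lower. Class and tissue cannot be told apart in that subset. A fit that also holds the class takes its effect from spleen cDC1s and T-bet- cDC2s, the only groups with both classes.

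Retinoic acid arises in 2 steps. Retinol dehydrogenases such as Rdh10 oxidize retinol to retinaldehyde, and retinaldehyde dehydrogenases (Aldh1a1, Aldh1a2) oxidize that irreversibly to retinoic acid, while Dhrs3 reduces retinaldehyde back to retinol. Retinoic acid binds the receptors RARα and RARγ, which sit on DNA as partners of RXRα, often at a repeat of a short element spaced by 5 bases. DCs of the gut and its lymph nodes are known for making retinoic acid, which favours regulatory T cells and gives lymphocytes the receptors that home to the gut.

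Whether DCs of the MLN and the spleen differ in these genes was asked within each subset. Aldh1a2 was the only member whose difference passed the test in all 3 subsets, and it rose in the MLN in each. In cDC1s it was at 364, 1278 and 1329 CPM in the MLN and at 8.87, 7.41 and 4.84 CPM in the spleen. Every MLN library lay above every spleen library, a 140.4-fold difference (log2 fold change 7.13 ± 0.77 SE, adjusted p = 0.000308, edgeR's quasi-likelihood test with Benjamini-Hochberg adjustment over 16795 genes, as for every adjusted p on RNA below). T-bet- cDC2s had 112 and 314 CPM in the MLN and 2.50, 4.99 and 5.97 CPM in the spleen. That was a 47.3-fold difference (log2 fold change 5.56 ± 0.74, adjusted p = 0.00148), again without overlap, and with 1 library left out the log2 fold change was 4.66 (without MLN replicate 2) to 6.16 (without MLN replicate 1), called each time. T-bet+ cDC2s had 60.8 and 309 CPM in the MLN and 8.87, 14.96 and 10.1 CPM in the spleen, a 16.3-fold difference (log2 fold change 4.03 ± 0.69, adjusted p = 0.00737). The call in T-bet+ cDC2s depended on MLN replicate 2: leaving it out gave a log2 fold change of 2.41 with an adjusted p of 0.181. In bulk samples, fewer cells with a gene and less of its RNA per cell cannot be told apart, so these levels are those of the sorted populations.

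**Figure D1:**
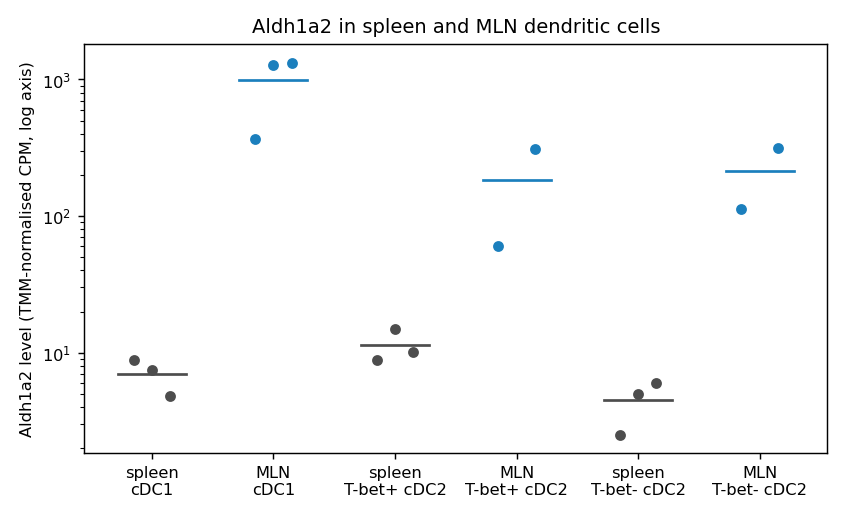
Aldh1a2 level of each of the 16 RNA libraries in TMM-normalised CPM, on a log axis, by tissue and subset; points are libraries and lines are group means. The MLN libraries sit between 60.8 and 1329 CPM and the spleen libraries between 2.50 and 14.96 CPM.

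Within the MLN, the level of Aldh1a2 was ordered cDC1s (990.2 ± 542.5 CPM, SD, n = 3), T-bet- cDC2s (213 ± 143 CPM, n = 2) and T-bet+ cDC2s (185 ± 176 CPM, n = 2). Each MLN cDC1 library exceeded each MLN cDC2 library, but the differences did not pass the test: the log2 fold change was -2.42 ± 0.72 for T-bet+ cDC2s against cDC1s (adjusted p = 0.0545) and -2.22 ± 0.71 for T-bet- cDC2s against cDC1s (adjusted p = 0.0834). DESeq2 called both (adjusted p = 0.00456 and 0.0133), and of 15 alternatives 7 called the former and 5 the latter. Single libraries decided this: the former was at -4.04 and called without MLN T-bet+ cDC2 replicate 2 (adjusted p = 0.0125) and at -1.63 without replicate 1 of that group (adjusted p = 0.37), the latter was at -3.14 without MLN T-bet- cDC2 replicate 2 (adjusted p = 0.113) and at -1.64 without replicate 1 (adjusted p = 0.537), and without MLN cDC1 replicate 1 both were called (-2.80 and -2.52, adjusted p = 0.0221 and 0.0429). The cDC2 subsets of the MLN did not differ beyond their spread (log2 fold change -0.20, 95% interval -1.73 to 1.33). In the spleen the order was T-bet+ cDC2s (11.3 ± 3.21 CPM), cDC1s (7.04 ± 2.04) and T-bet- cDC2s (4.49 ± 1.78), n = 3 each, and no neighbours in that order passed the test (adjusted p = 0.497 for T-bet+ cDC2s against cDC1s and 0.523 for T-bet- cDC2s against cDC1s). The size of the tissue difference was also tested between subsets. None of the 7 members tested passed in any of these 3 tests, in which 0.0893%, 0.0357% and 0.00595% of all genes were called. The nearest was Aldh1a2 for T-bet+ cDC2s against cDC1s, at -3.10 ± 0.92 on the log2 scale (95% interval -5.08 to -1.13, unadjusted p = 0.00456, adjusted p = 0.286 with edgeR). DESeq2 called that difference (adjusted p = 0.0454). It was the only member under an unadjusted p of 0.05 in this test, and Rxra the only one for T-bet- cDC2s against cDC1s.

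Other genes moved with Aldh1a2 across the MLN libraries. The 15 migratory and mature DC genes, which include the lymph node homing receptor Ccr7 and the actin bundler Fscn1, summed to 23183 and 24178 CPM in MLN cDC1 replicates 2 and 3 but to 8495 CPM in replicate 1, which was also the MLN cDC1 library with the least Aldh1a2. T-bet+ cDC2s showed the same, with 8127 CPM in MLN replicate 1 and 20079 CPM in MLN replicate 2. MLN T-bet- cDC2s had 17980 and 22153 CPM, above the 10552 to 12736 CPM of spleen T-bet- cDC2s. MLN cDC1 replicate 1 had 364 CPM of Aldh1a2 at a summed migratory level inside the 8361 to 10048 CPM of spleen cDC1s. Spleen T-bet+ cDC2s had 8.87 to 14.96 CPM of Aldh1a2 at a summed level of 16054 to 16782 CPM. In such sums the most abundant genes weigh most. Cacnb3, Ccl17, Ccl22, Fscn1, Nudt17 and Socs2 were named for their large changes. Each was higher in every MLN cDC1 library, replicate 1 included, than in any spleen cDC1 library. None of them exceeded 135.3 CPM in spleen T-bet+ cDC2s, where most of the sum came from other genes of the list. The part of migratory or mature cells in the level of Aldh1a2 was not tested. Among the migratory list, 10 of 14 tested genes rose and 1 fell in MLN cDC1s, 7 rose and 1 fell in T-bet+ cDC2s, and 8 rose and none fell in T-bet- cDC2s, beside 7.75%, 3.79% and 4.36% of all genes that rose. Cacnb3, a calcium channel subunit, reached 544 to 2646 CPM in MLN cDC1s against 103 to 216 CPM in spleen cDC1s, and the chemokine gene Ccl22 751 to 1902 CPM against 66.5 to 100.4 CPM.

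Markers of other cells were read beside Aldh1a2 as well, since stromal cells of lymph nodes can make retinoic acid. The 10 stromal genes, among them collagens and the chemokine genes Ccl19 and Ccl21a, summed to 5.92 to 54.2 CPM in MLN cDC1s, 18.5 and 27.9 CPM in MLN T-bet- cDC2s, and 0.828 and 71.7 CPM in MLN T-bet+ cDC2s. In the spleen they summed to 0.540 to 12.9 CPM. Within each MLN subset, the library with the lowest stromal sum also had the least Aldh1a2. It was replicate 1 in cDC1s (5.92 CPM of stromal genes), T-bet- cDC2s (18.5 CPM) and T-bet+ cDC2s (0.828 CPM, with 7 of the 10 genes at 0 reads). MLN cDC1 replicates 2 and 3 had 54.2 and 14.6 CPM of them, with 1278 and 1329 CPM of Aldh1a2. Between tissues, MLN T-bet+ cDC2 replicate 1 had 60.8 CPM of Aldh1a2. Spleen T-bet- cDC2 replicate 1 had 12.9 CPM of stromal genes and 2.50 CPM of Aldh1a2. Col3a1, Lum, Pdpn, Ccl19 and Ccl21a were each at most 1.21 CPM in spleen T-bet- cDC2s, so most of that sum came from other genes of the list. The part of stromal cells in the level of Aldh1a2 was not tested. MLN T-bet+ cDC2 replicate 2, on which the call in that subset rested, had both the highest stromal sum and the highest Xcr1 of the cDC2 libraries (34.01 CPM), and the part of either in its 309 CPM of Aldh1a2 was not tested. In MLN replicate 1 of the same subset Xcr1 was at 5.19 CPM, within the range of the spleen T-bet+ cDC2s (4.44 to 7.01 CPM).

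Other marker lists moved with the tissue too. The T and NK cell genes summed to 1.83 to 7.76 CPM in the MLN libraries and 0.193 to 1.54 CPM in those of the spleen. The cDC identity genes were lower in each MLN group, at 31840 to 73286 CPM against 76033 to 161020 CPM, as were red cell genes (0.146 to 0.434 CPM against 3.58 to 12.6 CPM) and neutrophil genes (0 to 14.01 CPM against 17.4 to 113.7 CPM). Macrophage genes overlapped between tissues in T-bet- cDC2s (1370 and 2385 CPM in the MLN, 1037 to 1401 CPM in the spleen). C1qa, a complement gene of macrophages, did not (296 and 550 CPM against 136 to 206 CPM). The same held for C1qb (421 and 803 CPM against 214 to 302 CPM) and C1qc (257 and 534 CPM against 126 to 182 CPM). Without these C1q genes, the mean sum of the list in T-bet- cDC2s was lower in the MLN than in the spleen. The part of these cells in the differences between tissues was not tested.

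**Figure D2:**
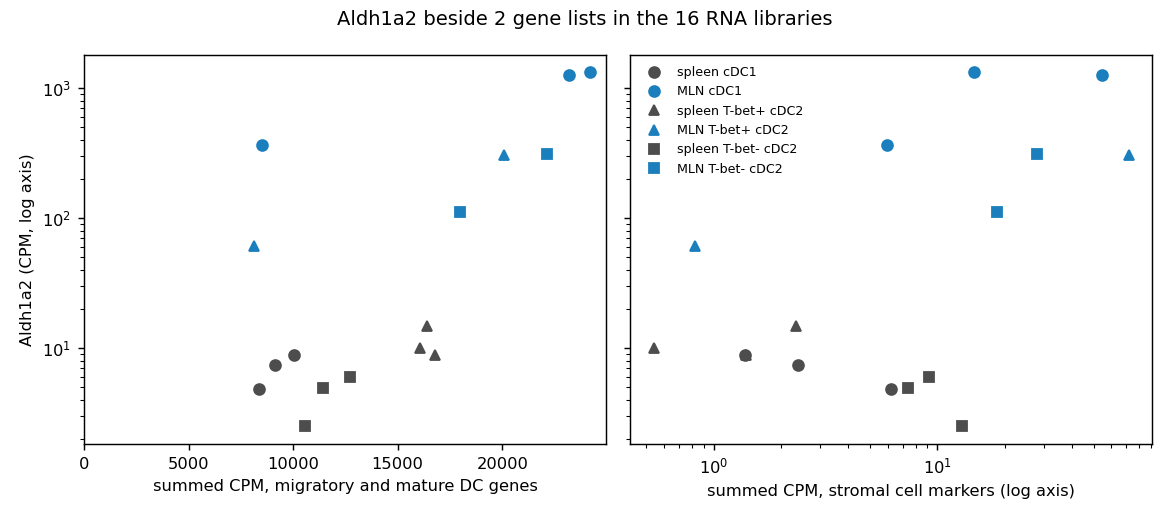
Aldh1a2 (CPM, log axis) against the summed CPM of the 15 migratory and mature DC genes (left) and of the 10 stromal marker genes (right, log axis) in the 16 RNA libraries; grey is spleen, blue is MLN, and the symbol gives the subset. All 7 MLN libraries lie above all 9 spleen libraries, and MLN cDC1 replicate 1, at 364 CPM of Aldh1a2, has a migratory sum of 8495 CPM. In each sum the most abundant genes of the list weigh most.

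The chromatin of Aldh1a2 (chr9:71215789-71296243, plus strand, GRCm38) differed between the subsets in the spleen, where its RNA was low in all of them. The authors counted ATAC-seq reads in windows of 150 bases around peak summits, and 78 windows lay within the members or up to 2000 bases before them (9 in Aldh1a2, 14 in Dhrs3, 17 in Rara, 12 in Rarg, 11 in Rdh10, 8 in Rxra, 7 in Rdh11 and none in Aldh1a1). A window was called where edgeR, over 166547 windows, gave an adjusted p below 0.01 and a log2 fold change beyond 0.5 in either direction. Of the 78 windows, 18 were called between T-bet+ cDC2s and cDC1s, 15 between T-bet- cDC2s and cDC1s and 4 between the cDC2 subsets (all 4 lower in T-bet+ cDC2s, as were 2.36% of all windows), where 23%, 17.9% and 6.28% of all windows were called. The member windows were thus called about as often as windows in general.

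An intronic window 7635 bases after the start of Aldh1a2 was open in cDC1s and almost closed in both cDC2 subsets. It held 59 and 83 reads in cDC1s (7.01 and 10.8 CPM), 4 and 2 reads in T-bet- cDC2s (0.493 and 0.202 CPM), and 3 and 0 reads in T-bet+ cDC2s (0.326 and 0 CPM). The log2 fold change was -4.67 ± 0.51 for T-bet- cDC2s against cDC1s (adjusted p = 1.75e-11), and T-bet+ cDC2s against cDC1s passed too (adjusted p = 5.15e-13). A further intronic window, 45859 bases after the start, held 34 and 42 reads in cDC1s, 0 and 8 in T-bet- cDC2s and 9 and 12 in T-bet+ cDC2s (log2 fold changes of -3.39 ± 0.54 and -2.07 ± 0.46 against cDC1s, adjusted p = 7.57e-07 and 0.000199). At the promoter, the window at -38 bases from the start was at 10.2 and 7.71 CPM in cDC1s, 3.95 and 5.47 CPM in T-bet- cDC2s and 4.68 and 4.08 CPM in T-bet+ cDC2s, and only the latter difference was called (-1.04 ± 0.30, adjusted p = 0.00456, against 0.0148 for T-bet- cDC2s). The window with the most reads near the start, at -1941 bases, was at 15.4 to 22.3 CPM in the 6 libraries and was not called in any comparison. ATAC-seq was made on spleen cells only, so these windows were not read in the MLN.

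**Figure D3:**
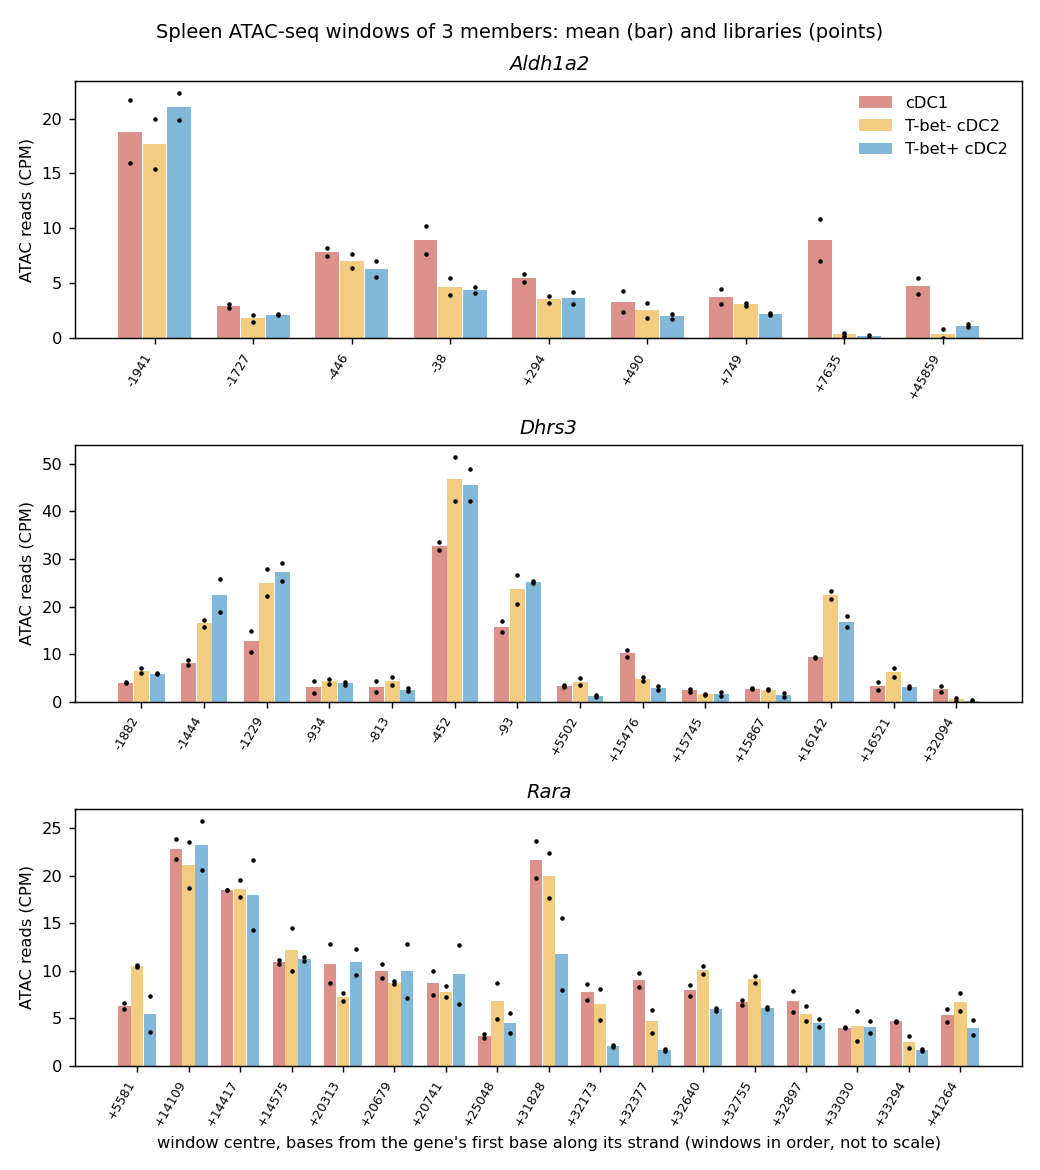
Spleen ATAC-seq reads (CPM) in the windows of Aldh1a2, Dhrs3 and Rara, ordered by distance from the first base of the gene along its strand; bars are means of 2 libraries, points the libraries, and colours the subsets. The Aldh1a2 windows at +7635 and +45859 bases stand at 8.92 and 4.76 CPM in cDC1s and at or under 1.12 CPM in both cDC2 subsets.

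The sequences of both intronic windows are shown because they were called against cDC1s for both cDC2 subsets. Capitals mark matches, on either strand, to 7 motifs. Of these, 3 were pairs of the element AGGTCA, to which receptors of the RAR and RXR kind bind, with A or G as the initial letter and G or T as the third, spaced by 1, 2 or 5 bases (DR1, DR2 and DR5), and a match needed both elements in the same direction. The others were TGANTCA (AP-1), GAGGAAGT (PU.1), a pair of GAAA spaced by 2 bases (IRF) and AGGTGTGA (T-box). A match is a run of letters and does not show binding.
Aldh1a2 at +7635, chr9:71223350-71223499, plus strand, GRCm38: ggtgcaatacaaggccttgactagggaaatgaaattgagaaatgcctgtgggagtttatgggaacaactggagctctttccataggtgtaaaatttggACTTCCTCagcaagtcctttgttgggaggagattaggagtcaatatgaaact
Aldh1a2 at +45859, chr9:71261574-71261723, plus strand, GRCm38: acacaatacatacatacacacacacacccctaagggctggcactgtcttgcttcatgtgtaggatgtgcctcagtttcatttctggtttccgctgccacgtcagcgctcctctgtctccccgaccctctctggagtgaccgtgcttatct
The former holds a match to the PU.1 letters on the minus strand, a factor of myeloid cells. These letters occur in 5.5% of the 177956 windows and in 4 of the 78 member windows (5.13%). The latter window matched none of the 7.

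Of the remaining synthesis genes, Aldh1a1, the other retinaldehyde dehydrogenase of the set, had 0 to 12 reads per library and 0 reads in 7 of 16 libraries, did not pass the filter on low counts and was not tested. Its highest level was 0.617 CPM, in spleen T-bet- cDC2 replicate 2. Rdh10, which carries out the initial oxidation of retinol, was at 0.546 to 2.11 CPM in the MLN and at 1.11 to 7.67 CPM in the spleen. The groups overlapped in 2 of 3 subsets, and no tissue comparison passed (log2 fold changes of -1.53 ± 0.70 for cDC1s, -1.42 ± 0.80 for T-bet+ and -1.52 ± 0.80 for T-bet- cDC2s, adjusted p = 0.158, 0.266 and 0.255). Within the 10 libraries of the lower GC class, Rdh10 was at 1.11, 1.49 and 1.49 CPM in the spleen, inside the range of the MLN, and at 2.76 to 7.67 CPM in the 6 spleen libraries of the higher class. A fit that also held the class gave Rdh10 a log2 fold change of 0.12 in cDC1s and 0.71 in T-bet+ cDC2s. Near its start, 3 windows were more open in a cDC2 subset than in cDC1s. The most different, at -1357 bases from the start, was at 23.0 and 22.2 CPM in cDC1s, 40.7 and 41.6 CPM in T-bet- cDC2s and 36.0 and 39.2 CPM in T-bet+ cDC2s (log2 fold changes of 0.86 ± 0.17 and 0.73 ± 0.17, adjusted p = 6.23e-05 and 0.000504).

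The direction in which the enzyme of Rdh11 works in these cells was not measured. Rdh11, grouped here with the synthesis genes, was at 14.8, 22.1 and 18.3 CPM in MLN cDC1s and at 9.60, 10.2 and 8.71 CPM in spleen cDC1s. It rose 1.93-fold in these cells, with no overlap (log2 fold change 0.95 ± 0.29, adjusted p = 0.048). This call stood in 5 of 16 alternatives, and among the 6 that left out a library only without MLN replicate 1. A fit that also held the class gave 0.87 (adjusted p = 0.178). In T-bet+ cDC2s the MLN libraries (17.3 and 19.97 CPM) also lay above those of the spleen (9.63, 13.8 and 11.2 CPM), but the difference did not pass (log2 fold change 0.69, adjusted p = 0.181). In T-bet- cDC2s the tissues overlapped (10.7 and 17.1 CPM in the MLN, 10.4 to 18.4 CPM in the spleen, log2 fold change 0.07, adjusted p = 0.916). None of the 7 windows of Rdh11 was called, the one with the most reads lying at -110 bases from a start with 13.3 to 26.2 CPM.

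Dhrs3, the reductase that returns retinaldehyde to retinol and is itself a known retinoic acid target, was higher in the MLN and higher in cDC2s. In cDC1s it was at 18.1, 30.3 and 24.98 CPM in the MLN and at 8.67, 6.75 and 9.96 CPM in the spleen, a 2.89-fold rise without overlap (log2 fold change 1.53 ± 0.30, adjusted p = 0.00671). T-bet- cDC2s had 138 and 123 CPM in the MLN against 60.2, 36.3 and 28.8 CPM in the spleen, a 3.12-fold rise (log2 fold change 1.64 ± 0.32, adjusted p = 0.00985). T-bet+ cDC2s had 79.6 and 111 CPM against 67.4, 54.0 and 55.1 CPM, also without overlap, but this difference did not pass (log2 fold change 0.70 ± 0.32, adjusted p = 0.176). A fit that also held the class lost the call in cDC1s (log2 fold change 1.17, adjusted p = 0.0572), and the call in T-bet- cDC2s was lost without MLN replicate 1 (adjusted p = 0.0827) or spleen replicate 2 (adjusted p = 0.0514).

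Dhrs3 also differed between the cDC2s and the cDC1s. In the spleen, T-bet+ cDC2s held 58.8 ± 7.41 CPM, T-bet- cDC2s 41.8 ± 16.4 CPM and cDC1s 8.46 ± 1.62 CPM (n = 3 each). Against cDC1s the log2 fold change was 2.80 ± 0.31 in T-bet+ cDC2s (adjusted p = 2.32e-05) and 2.30 ± 0.30 in T-bet- cDC2s (adjusted p = 0.000125). In the MLN the corresponding values were 1.96 ± 0.32 (adjusted p = 0.0012) and 2.41 ± 0.32 (adjusted p = 0.000257). Every one of these comparisons was without overlap and stood under every alternative and with any library left out. The cDC2 subsets themselves did not pass for Dhrs3 in either tissue (adjusted p = 0.389 in the spleen and 0.811 in the MLN). In the MLN the mean of Aldh1a2 was highest in cDC1s, and that of Dhrs3 was lowest there. For Aldh1a2 these differences did not pass with edgeR (adjusted p = 0.0545 for T-bet+ and 0.0834 for T-bet- cDC2s against cDC1s). Per kilobase of exon, MLN cDC1s had 437 CPM of Aldh1a2 and 8.36 CPM of Dhrs3, while MLN T-bet- cDC2s had 94.0 and 44.5 CPM, and MLN T-bet+ cDC2s 81.7 and 32.6 CPM.

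**Figure D4:**
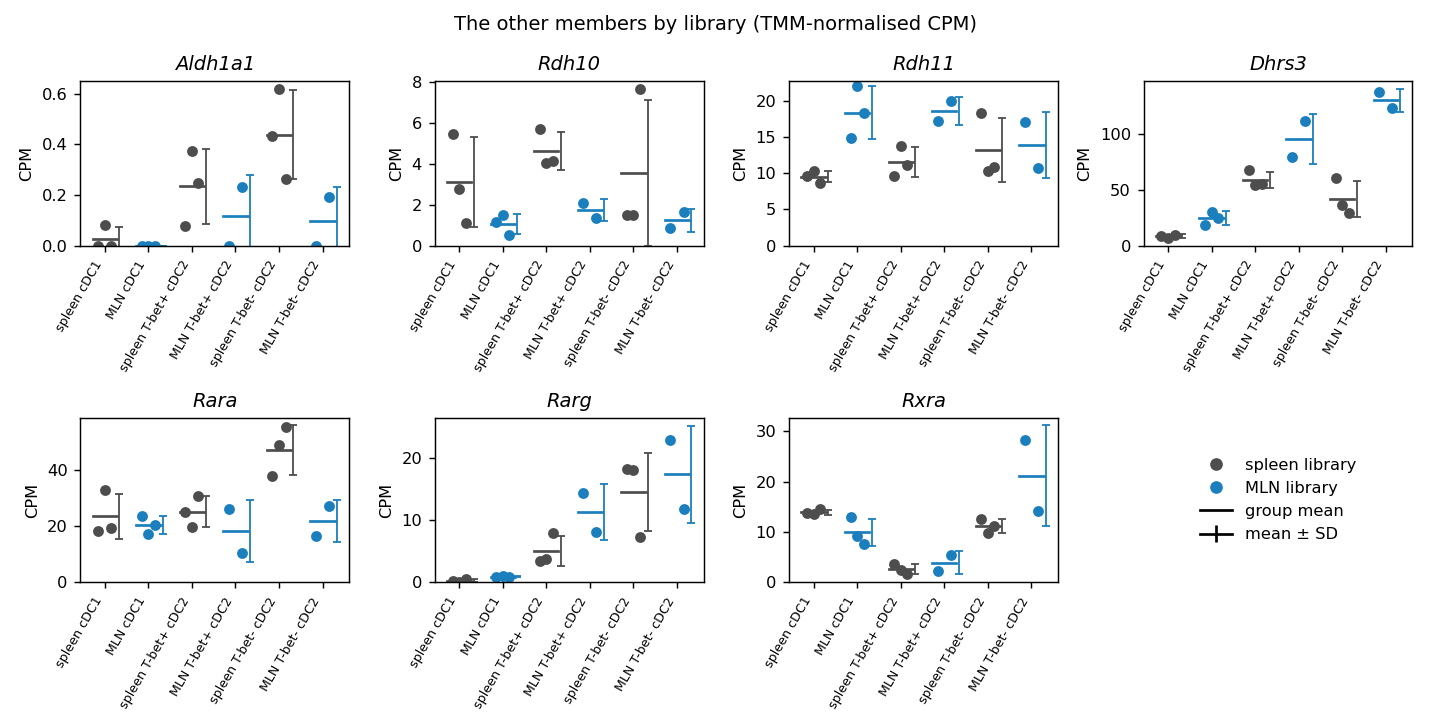
CPM of the 7 members other than Aldh1a2 in each of the 16 RNA libraries, with group means (lines) and SD (bars), grey for spleen and blue for MLN. Dhrs3 reaches 138 CPM in MLN T-bet- cDC2s and stays at or under 30.3 CPM in cDC1s, and Rarg stays under 1 CPM in cDC1s.

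Several windows of Dhrs3 (chr4:144892827-144928209, plus strand) were called, in both directions. The window at -1444 bases from the start was at 7.72 and 8.75 CPM in cDC1s, 17.3 and 15.8 CPM in T-bet- cDC2s and 18.9 and 25.8 CPM in T-bet+ cDC2s (log2 fold changes of 1.00 ± 0.23 and 1.44 ± 0.23, adjusted p = 0.000423 and 2.61e-07). An intronic window at +15476 bases went the other way, with 9.50 and 10.97 CPM in cDC1s, 5.18 and 4.35 CPM in T-bet- cDC2s and 2.50 and 3.35 CPM in T-bet+ cDC2s (log2 fold changes of -1.11 ± 0.29 and -1.80 ± 0.31, adjusted p = 0.00255 and 2.6e-06). A window at +32094 bases held 17 and 25 reads in cDC1s, 7 and 2 in T-bet- cDC2s and 3 and 0 in T-bet+ cDC2s and was called against cDC1s for both. The window with the most reads near the start, at -452 bases, was at 32.0 and 33.6 CPM in cDC1s and 42.1 to 51.4 CPM in the cDC2s, and was not called.

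A further intronic window of Dhrs3, at +5502 bases, set T-bet+ cDC2s apart from both other subsets. It was at 1.41 and 1.05 CPM in T-bet+ cDC2s, 4.93 and 3.64 CPM in T-bet- cDC2s and 3.21 and 3.53 CPM in cDC1s, on 10 to 40 reads per library. T-bet+ cDC2s were lower than T-bet- cDC2s (log2 fold change -1.78 ± 0.42, adjusted p = 0.00151) and lower than cDC1s (-1.44 ± 0.43, adjusted p = 0.00628). It is shown because it holds a DR5 match, beside the window at -1229 bases from the start, which was chosen after its values were seen as one that was higher in both cDC2 subsets.
Dhrs3 at +5502, chr4:144898255-144898404, plus strand, GRCm38: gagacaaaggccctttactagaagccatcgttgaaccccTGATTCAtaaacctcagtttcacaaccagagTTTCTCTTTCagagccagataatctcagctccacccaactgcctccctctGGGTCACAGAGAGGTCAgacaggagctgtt
Dhrs3 at -1229, chr4:144891524-144891673, plus strand, GRCm38: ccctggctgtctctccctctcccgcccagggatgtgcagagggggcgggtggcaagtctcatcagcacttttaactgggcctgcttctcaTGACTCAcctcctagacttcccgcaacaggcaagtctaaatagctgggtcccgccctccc
In the window at +5502 the capitals mark an AP-1 match, an IRF match on the minus strand and, as the last run, the DR5 match GGGTCACAGAGAGGTCA. In the window at -1229, which was at 14.8 and 10.6 CPM in cDC1s against 22.2 to 29.3 CPM in the cDC2s, they mark an AP-1 match (7.9% of all windows hold one, and 4 of the 78 member windows). DR5 matches were rare, in 117 of the 177956 windows (0.0657%) and in 32 of the 32544 RefSeq promoter sequences of 300 bases (0.0983%), and 2 of the 78 member windows held one.

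The other DR5 match lay in Rara (chr11:98927818-98974942, plus strand), which encodes RARα. Its window lay at -421 bases from an internal start of the gene and 32173 bases after the outermost start, and it too was lower in T-bet+ cDC2s. There it was at 2.18 and 1.99 CPM, against 4.81 and 8.10 CPM in T-bet- cDC2s (log2 fold change -1.64 ± 0.35, adjusted p = 0.000422) and 6.89 and 8.62 CPM in cDC1s (-1.89 ± 0.35, adjusted p = 7.72e-06).
Rara at +32173, chr11:98959917-98960066, plus strand, GRCm38: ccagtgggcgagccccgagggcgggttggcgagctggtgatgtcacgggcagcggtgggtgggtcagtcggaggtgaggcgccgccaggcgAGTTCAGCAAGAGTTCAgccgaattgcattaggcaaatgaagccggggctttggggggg
The neighbouring window, at -217 bases from the same start, had no match and was lower in T-bet+ cDC2s as well (1.52 and 1.78 CPM, against 3.45 and 5.87 CPM in T-bet- cDC2s and 8.32 and 9.79 CPM in cDC1s, with log2 fold changes of -1.51 ± 0.37 and -2.44 ± 0.36, adjusted p = 0.00317 and 4.37e-08). These were 2 of the 4 member windows called between the cDC2 subsets, the others being the Dhrs3 window at +5502 and a Rarg window at -1093 bases from an internal start (-0.99 ± 0.27, adjusted p = 0.00818), and all 4 were lower in T-bet+ cDC2s. DESeq2 called 1 of the 78 windows in this comparison. The Rara window with the most reads within 2000 bases of a start, at -766 bases from that internal start, was at 19.7 and 23.6 CPM in cDC1s, 17.6 and 22.4 CPM in T-bet- cDC2s and 15.6 and 7.95 CPM in T-bet+ cDC2s, the last lower than cDC1s (-0.88 ± 0.22, adjusted p = 0.00111).

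The RNA of Rara was present throughout, at 10.4 to 55.4 CPM, and no comparison of it passed with edgeR. It was highest in spleen T-bet- cDC2s, at 37.8, 49.0 and 55.4 CPM, above every library of spleen T-bet+ cDC2s (19.7 to 30.7 CPM) and of spleen cDC1s (18.4 to 32.9 CPM), with adjusted p = 0.183 and 0.0768. In the MLN T-bet- cDC2s it was at 16.6 and 27.3 CPM (log2 fold change -1.11 ± 0.41 against the spleen, adjusted p = 0.118, 0.046 with DESeq2). In cDC1s and T-bet+ cDC2s the tissues overlapped.

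Rarg, which encodes RARγ, was low in cDC1s and higher in cDC2s. It had 0.852, 0.997 and 0.910 CPM in MLN cDC1s and 0.243, 0.0412 and 0.580 CPM in spleen cDC1s, on 1 to 25 reads per library, while T-bet- cDC2s had 18.4, 18.0 and 7.25 CPM in the spleen and 23.0 and 11.8 CPM in the MLN. T-bet+ cDC2s had 3.49, 3.75 and 7.93 CPM in the spleen and 14.5 and 8.17 CPM in the MLN. The cDC2 subsets overlapped in both tissues, and their difference did not pass with edgeR (adjusted p = 0.157 in the spleen and 0.901 in the MLN). Against cDC1s, the log2 fold change was 5.67 ± 0.70 for T-bet- cDC2s (adjusted p = 7.5e-05) and 4.14 ± 0.67 for T-bet+ cDC2s (adjusted p = 0.000616) in the spleen. In the MLN it was 4.23 ± 0.66 (adjusted p = 0.000903) and 3.62 ± 0.65 (adjusted p = 0.00258). Rarg did not pass between tissues in any subset, although MLN libraries lay above those of the spleen in cDC1s (log2 fold change 1.69, adjusted p = 0.103) and T-bet+ cDC2s (1.16, adjusted p = 0.23). In cDC1s the call was made in 3 of 15 alternatives, among them without spleen replicate 3 (2.65, adjusted p = 0.0297), and the value was 1.12 without spleen replicate 2 (adjusted p = 0.271). Of the 12 windows of Rarg (chr15:102234938-102257517, minus strand), 5 were more open in T-bet- cDC2s than in cDC1s and 2 in T-bet+ cDC2s, and none was less open, where 17.9% and 23% of all windows were called in either direction. The window at -562 bases from an internal start was at 8.79 and 7.18 CPM in cDC1s, 17.5 and 16.8 CPM in T-bet- cDC2s and 19.4 and 18.0 CPM in T-bet+ cDC2s (log2 fold change 1.10 ± 0.23 for T-bet- cDC2s, adjusted p = 0.000113, and adjusted p = 1.13e-05 for T-bet+ cDC2s). It overlaps the next window, so both share reads.

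Rxra, which encodes the shared partner RXRα, differed between the cDC2 subsets, with the T-bet+ cells lower. Spleen T-bet+ cDC2s had 3.72, 2.55 and 1.70 CPM, against 12.6, 9.71 and 11.3 CPM in T-bet- cDC2s and 13.7, 13.6 and 14.5 CPM in cDC1s. The log2 fold change was -2.07 ± 0.40 against T-bet- cDC2s (adjusted p = 0.00828) and -2.39 ± 0.40 against cDC1s (adjusted p = 0.000836), and both calls stood under every alternative. In the MLN, T-bet+ cDC2s had 2.30 and 5.51 CPM and T-bet- cDC2s 28.3 and 14.1 CPM (log2 fold change -2.44 ± 0.49, adjusted p = 0.0485), a call that stood in 7 of 14 alternatives. MLN T-bet+ cDC2s also lay below MLN cDC1s, but this difference did not pass (-1.34 ± 0.45, adjusted p = 0.0866). Between tissues Rxra did not pass. Its MLN libraries lay below those of the spleen in cDC1s (12.9, 9.28 and 7.54 CPM, log2 fold change -0.49, adjusted p = 0.396) and above them in T-bet- cDC2s (log2 fold change 0.92, adjusted p = 0.195), and the difference between these effects did not pass either (1.41 ± 0.56, 95% interval 0.20 to 2.62, adjusted p = 0.734). None of the 8 windows of Rxra was called. The one with the most reads, at -76 bases from an internal start, was at 6.89 and 7.71 CPM in cDC1s, 5.79 and 9.31 CPM in T-bet- cDC2s and 3.59 and 4.60 CPM in T-bet+ cDC2s (adjusted p = 0.0312 and 0.0419 for T-bet+ cDC2s against cDC1s and T-bet- cDC2s).

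**Figure D5:**
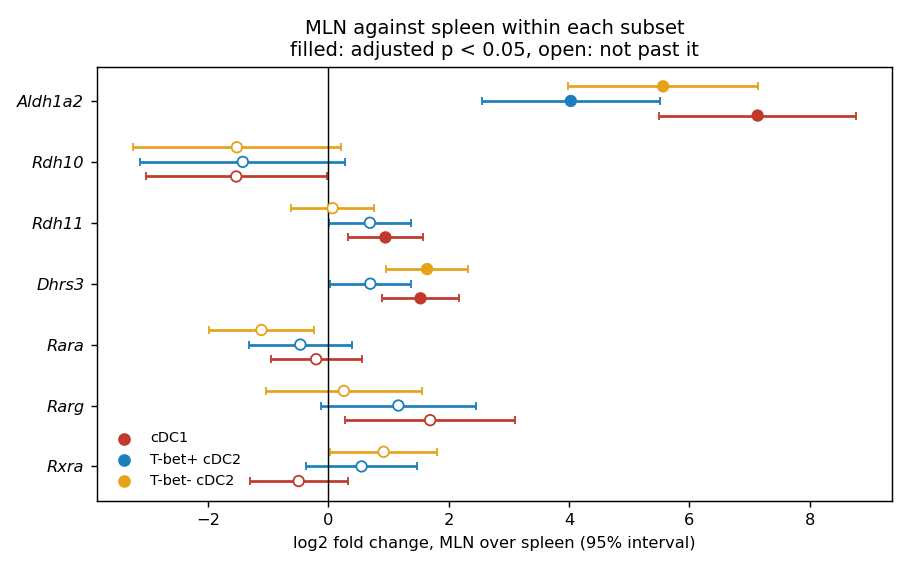
Log2 fold change of MLN over spleen with its 95% interval for the 7 members tested, by subset; filled points passed an adjusted p of 0.05 with edgeR and open points did not. Aldh1a2 passed in all 3 subsets, Dhrs3 in cDC1s and T-bet- cDC2s, Rdh11 in cDC1s, and no receptor passed.

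Counted together, 3 of the 7 tested members rose and none fell in MLN cDC1s, where 11.7% of all genes were called and 7.75% rose. In T-bet- cDC2s 2 rose, with 5.95% of all genes called and 4.36% higher, and in T-bet+ cDC2s 1 rose, with 5.09% called and 3.79% higher. MLN and spleen libraries did not overlap for 5, 4 and 5 of the 7 members (cDC1s first, then T-bet- and T-bet+ cDC2s), and for 29.2%, 40.1% and 49.9% of all genes. In the comparisons of subsets, 3 of 7 members were called for T-bet+ cDC2s against cDC1s in the spleen (16.7% of all genes), 2 for T-bet- cDC2s against cDC1s (14%) and 1 between the cDC2 subsets (4.22%). In the MLN the counts were 2 (8.01% of all genes), 2 (7.03%) and 1 (0.405%).

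The other genes of the pathway were taken from 6 lists. Of their 64 genes besides the members, 62 were in the table and 48 were tested. In MLN against spleen, 4 rose and 6 fell in cDC1s (20.8% called, beside 11.7% of all genes). In T-bet+ cDC2s 3 rose and 3 fell (12.5%, beside 5.09%), and in T-bet- cDC2s 5 rose and 2 fell (14.6%, beside 5.95%). The median log2 fold changes of these genes were 0.37, 0.15 and 0.27 in the same order, beside 0.01, 0.00 and -0.04 over all genes. Among the dehydrogenases, Rdh5 rose in cDC1s (2.84, 6.16 and 3.17 CPM against 0.206 to 1.06 CPM, log2 fold change 2.83 ± 0.68, adjusted p = 0.0184) and in T-bet- cDC2s (2.90 ± 0.71, adjusted p = 0.0288), and the other 10 tested genes of that list did not pass in any subset. With the class in the fit neither call of Rdh5 passed (adjusted p = 0.0621 and 0.0584).

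Of the genes for uptake and binding of retinoids, 9 were tested. Fabp5, a fatty acid binding protein that can also carry retinoic acid, rose in all 3 subsets. It was at 25.2 to 67.7 CPM in MLN cDC1s against 3.70 to 8.90 CPM in the spleen (log2 fold change 2.95 ± 0.48, adjusted p = 0.0029), at 914 and 763 CPM against 153 to 196 CPM in T-bet- cDC2s (2.22 ± 0.49, adjusted p = 0.0186), and at 218 and 787 CPM against 105 to 169 CPM in T-bet+ cDC2s (1.94 ± 0.49, adjusted p = 0.0379). The call of Fabp5 in T-bet+ cDC2s stood in 8 of 15 alternatives and not with the class in the fit (1.36, adjusted p = 0.377). Stra6, a receptor for retinol uptake, rose in both cDC2 subsets, to 10.9 and 7.23 CPM in T-bet- cDC2s and 1.81 and 11.1 CPM in T-bet+ cDC2s, from at most 0.415 CPM in any spleen cDC2 library (adjusted p = 0.0103 and 0.0223), the latter call being lost with the class in the fit (adjusted p = 0.305). Stra6l, a relative of Stra6, fell in cDC1s, from 38.8 to 72.7 CPM in the spleen to 6.85 to 17.3 CPM (log2 fold change -2.39 ± 0.34, adjusted p = 0.00139). Of the genes that break retinoic acid down, 2 were tested and neither passed. Cyp26b1, one of the main hydroxylases of retinoic acid, was at 1.46, 2.17 and 2.00 CPM in MLN cDC1s and 0.162 to 0.412 CPM in spleen cDC1s (adjusted p = 0.152), and Cyp2s1 overlapped between tissues in each subset.

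Of the 12 genes listed as targets of retinoic acid, 10 were tested, Dhrs3 among them, and they moved in both directions. In cDC1s 2 rose and 2 fell, in T-bet+ cDC2s 2 rose and 2 fell, and in T-bet- cDC2s 3 rose and 1 fell. Of all genes, 11.7%, 5.09% and 5.95% were called in these comparisons. Itgb8, the integrin chain through which DCs activate TGFβ, rose in all 3 subsets, to 40.4, 199 and 160.5 CPM in MLN cDC1s from 0.162 to 1.21 CPM in spleen cDC1s (log2 fold change 7.76 ± 1.33, adjusted p = 0.00388). Like Aldh1a2 it was lowest in replicate 1 of the MLN cDC1s and of the MLN T-bet+ cDC2s (1.24 CPM against 36.4 CPM in replicate 2), while in MLN T-bet- cDC2s it was at 27.1 and 7.65 CPM in the libraries with 112 and 314 CPM of Aldh1a2. Its calls in cDC2s stood in 7 (T-bet+) and 6 (T-bet-) of 14 alternatives, and with the class in the fit neither passed (adjusted p = 0.359 and 0.0544). Tgm2, a transglutaminase, fell in all 3, from 1326 to 1473 CPM in spleen T-bet+ cDC2s to 334 and 120 CPM in the MLN (log2 fold change -2.63 ± 0.46, adjusted p = 0.00811), by 2.82 ± 0.47 in T-bet- cDC2s (adjusted p = 0.0046) and by 2.32 ± 0.40 in cDC1s (adjusted p = 0.00394). Cd38 fell in cDC1s (29.5 to 45.4 CPM against 115 to 191 CPM, adjusted p = 0.00424) and did not pass in cDC2s, and the transcriptional repressor Hic1 fell in T-bet+ cDC2s (5.95 and 1.97 CPM against 67.1 to 123 CPM, adjusted p = 0.0484). Hic1 moved with library class: it was at 44.9 and 59.4 CPM in the spleen cDC1 libraries of the higher class and 3.58 CPM in the other, and at 27.99 CPM in the spleen T-bet- cDC2 library of the higher class and 1.54 and 7.09 CPM in the others. With the class in the fit its log2 fold change in T-bet+ cDC2s went from -4.69 to -1.42 (adjusted p = 0.506), and leaving out any 1 library of that comparison lost the call.

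Among the other nuclear receptors that pair with RXR, Nr4a2 fell in cDC1s (-2.37 ± 0.58, adjusted p = 0.0204) and T-bet+ cDC2s (-3.07 ± 0.71, adjusted p = 0.0269), and Pparg fell in cDC1s (-2.22 ± 0.52, adjusted p = 0.0173) and T-bet- cDC2s (-2.38 ± 0.58, adjusted p = 0.0285). The other 8 tested genes of that list did not pass. Nr4a2 too moved with library class, at 581 and 699 CPM in the spleen cDC1 libraries of the higher class, 151 CPM in the other and 49.5 to 123 CPM in MLN cDC1s, and with the class in the fit it passed in neither subset (-0.99 in cDC1s and -1.37 in T-bet+ cDC2s, adjusted p = 0.251 and 0.362). Pparg, at 2.39 and 1.98 CPM in these 2 spleen cDC1 libraries and 0.774 CPM in the other, then passed in T-bet- cDC2s (adjusted p = 0.0334) but not in cDC1s (adjusted p = 0.168). Of the 11 co-regulators, the co-activator Ncoa2 rose in cDC1s (2.30-fold, adjusted p = 0.0473) and T-bet- cDC2s (1.62 ± 0.40, adjusted p = 0.0302), and the co-repressor subunit Tbl1xr1 fell in cDC1s (-0.98 ± 0.29, adjusted p = 0.0433), and with the class in the fit neither passed in cDC1s (adjusted p = 0.103 and 0.264). Of 8 genes listed for intestinal DCs, Itgae, the CD103 integrin chain, rose in T-bet+ cDC2s (9.94 and 16.9 CPM against 0.263 to 1.25 CPM, adjusted p = 0.0054), and Tgfb1 fell in cDC1s (adjusted p = 0.0368) and T-bet+ cDC2s (adjusted p = 0.0406). With the class in the fit none of these passed (adjusted p = 0.0644 for Itgae, 0.256 and 0.421 for Tgfb1). In MLN cDC1s, where Aldh1a2 was highest, Itgae was at 207 to 494 CPM against 308 to 376 CPM in the spleen (adjusted p = 0.894).

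The genes whose levels ran most like each member over the 16 RNA libraries were listed by Pearson's r of log2 CPM, as a description over libraries that share tissue, subset and library class. Of 11085 genes compared, Vsig10 (r = 0.952) and Spata31d1b (0.951) were most like Aldh1a2, Fabp5 (0.966) and Bend4 (0.96) most like Dhrs3, and Tmem173 (0.973) and Mcemp1 (0.971) most like Rarg. Stard8 (0.938) and RP23-325K4.10 (0.93) ran with Rxra, Dusp12 (0.941) and Nudt19 (0.931) with Rdh10, Cwf19l2 (0.891) and Gnpda2 (0.862) with Rdh11, and Vsir (0.83) and Slc39a13 (0.826) with Rara.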

How the data were processed

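RNA-seq and ATAC-seq libraries were made by the authors from sorted DCs. Per the submitters' processing notes and the study's methods, RNA reads were aligned with HISAT2 2.1.0 and uniquely aligned reads were counted per gene with Rsubread. The authors deposited the raw read counts, and whether counting used strand is not given in the sources used here. ATAC-seq reads were aligned with Bowtie2 2.2.5 to mm10 (GRCm38), and peaks and summits were called with MACS2 2.1.1.20160309 on all replicates together. The deposited ATAC-seq values are raw read counts in windows of 150 bases around summits and in 74217 whole peaks, the latter used here for an alternative only. The deposited position files also hold a score, which is constant, and the −log10 p of each summit, and neither was used.

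The counts were tested with edgeR 4.0.16 (R 4.3.3, quasi-likelihood F test, TMM scaling, filter on low counts by filterByExpr, Benjamini-Hochberg adjustment) in 1 fit of the 6 groups of RNA libraries and 1 fit of the ATAC-seq libraries. RNA calls used an adjusted p under 0.05, over 16795 of 34047 genes, and ATAC-seq calls 0.01 and a log2 fold change beyond 0.5 in either direction. CPM are counts scaled by the TMM-adjusted library size, SE is the log2 fold change divided by the square root of F, and levels per kilobase use the union of exons. Fits were tested on simulated data. DESeq2 1.42.0, other scalings and filters, replicate blocks, library class and leaving out each library were alternatives. Library class is higher where Spearman's rho between relative level and GC content was above 0.1, and lower otherwise. Sequences and promoters are from RefSeq's GRCm38 assembly.

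The members and the gene lists were chosen with earlier results of these data known. Named genes of a list were those called between MLN and spleen in at least 1 subset, at most 6 a list by size of change, and otherwise the 2 with the highest counts. Named windows were, for each member, the one with the most reads within 2000 bases of a start and up to 4 called ones by size of change. Likeness was computed on log2 CPM with a prior count of 2 among genes with a mean of at least 50 normalised counts. Intervals cover 95%.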

Additional observations from a re-analysis of the deposited data

How the results depend on the processing

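Aldh1a2 stayed called between MLN and spleen in 16 of 16 alternatives for cDC1s, 15 of 15 for T-bet- cDC2s and 14 of 15 for T-bet+ cDC2s. Single-gene values were tallied for every tested member between tissues and, in the other comparisons, for selected members only. Over these values, leaving out 1 library kept 204 calls and directions, lost 11 calls, gained 4 and turned 10 directions. The other alternatives kept 352, lost 11, gained 14 and turned 6. With library class as a term the direction turned for Rdh10 (0.12 in cDC1s, 0.71 in T-bet+ cDC2s), Rara in cDC1s (0.0637) and Rarg (-0.38 and -0.14, with T-bet+ before T-bet- cDC2s), and 1 member was called in cDC1s in place of 3. Leaving out 1 library gave log2 fold changes of -0.387 to 0.0676 for Rara in cDC1s, -1.24 to 0.0442 for Rara and -0.22 to 1.10 for Rxra in T-bet+ cDC2s, -0.28 to 0.40 for Rdh11 and -0.27 to 0.68 for Rarg in T-bet- cDC2s, and -1.83 to 0.75 for Aldh1a2 between the MLN cDC2 subsets.

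Genes called between tissues in cDC1s were 1961, and 3532 with DESeq2, 3397 without the filter, 774 with library class, 1225 in a fit of the compared groups only and 535 to 2948 with 1 library left out. In T-bet+ cDC2s they were 855, and 2776 with DESeq2, 1453 with library size only, 2875 without the filter, 1438 with the newer dispersion estimate, 63 with library class, 2937 with the compared groups only and 36 to 1126 with 1 library left out. In T-bet- cDC2s they were 1000, and 2274 with DESeq2, 2435 without the filter, 1688 with the newer dispersion estimate and 186 to 944 with 1 library left out.

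Members called for the difference of T-bet+ cDC2s from cDC1s in the tissue effect were 0, and 1 with DESeq2 and 1 without the filter. Between the spleen cDC2 subsets they were 1, and 2 with DESeq2 and 3 without the filter. In the MLN they were 2 for T-bet+ cDC2s against cDC1s (4 with DESeq2, 1 with at least 10 counts in every library, 2 to 4 with 1 library left out), 2 for T-bet- cDC2s against cDC1s (1 with at least 10 counts) and 1 between the cDC2 subsets (0 with library size only and with the compared groups only, 0 to 1 with 1 library left out). Between tissues, leaving out 1 library gave 1 to 2 members in T-bet- cDC2s and 0 to 1 in T-bet+ cDC2s. Member windows called were 18 for T-bet+ cDC2s against cDC1s (10 with DESeq2, 8 for whole peaks, 9 to 15 with 1 library left out), 15 for T-bet- cDC2s against cDC1s (8 for whole peaks, 24 at an adjusted p under 0.05 with no limit on size, 6 to 13 with 1 library left out) and 4 between the cDC2 subsets (1 with DESeq2, 10 at 0.05, 1 to 4 with 1 library left out). The causes of these changes were not tested.

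MLN and spleen libraries of the same subset and number deviated together at r = -0.0473 to 0.313, not every pair above 0.1, so the replicate numbers were not taken to pair the samples, and pairing between subsets was not checked. With the title number as a replicate block, 0 members were called between the MLN cDC2 subsets (Rxra adjusted p = 0.0906 with edgeR). With the number in the library name as the block, an alternative chosen after seeing the data, 0 were called there too (0.0583), 601 genes were called between tissues in T-bet- cDC2s, and Aldh1a2 turned to 0.0249 between the MLN cDC2 subsets. With 2 libraries in each MLN cDC2 group, 1 library can decide a call.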
